A study of Mus musculus with 3 samples.

Results

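The cells described here are monocytes and macrophages found in mouse ear epidermis after microneedle injury, picked from single-cell RNA libraries by an expression gate. The gate asked for at least 10 UMIs (unique molecular identifiers, each standing for 1 captured RNA molecule) and at least 1000 CPM (UMIs of a gene per 1000000 UMIs) summed over 6 genes, Pf4, Ccl7, Ccl2, Msr1, Ccl6 and Fcgr1. It also asked for less than 300 CPM of Epcam plus Cd207, less than 1% of UMIs from S100a8 plus S100a9, less than 0.5% from Krt14 plus Krt5 and fewer than 3 UMIs of Cd3e, Cd3g and Cd3d together. Of 24840 retained cells, 279 met it: 274 of 6855 in the microneedle library, 5 of 8158 in the croton oil library and 0 of 9827 in the untreated library. All libraries came from male mice of the outbred Cd1 strain, whose ages are not given. The untreated group had received only the depilatory Nair, and the treated groups were sampled 48 hours after croton oil in acetone and olive oil or after multiple microneedle punches. Epidermis was split from dermis with trypsin, dead cells were removed and the suspension was enriched magnetically for Langerhans cells (LCs), antigen-presenting cells that live in the epidermis. Gated cells are therefore what was left beside LCs after enrichment, and their share is not their share of the skin. There was 1 library per group and the number of animals behind each is not stated, so no test between groups was possible, and all intervals cover counting error only.

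Monocytes are made in the bone marrow, circulate in blood and enter injured tissue through receptors such as Ccr2. In a skin wound they first carry inflammatory genes and then turn into macrophages, which take up debris and dying neutrophils, digest them in lysosomes, recycle iron and lipid, and release chemokines, growth factors and matrix proteins. Healthy epidermis holds LCs as its main mononuclear phagocyte, while resident macrophages sit in the dermis.

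The libraries held 6945 to 9876 barcodes and 117178809 to 127666928 UMIs. The gated share was 3.997% (95% exact binomial interval 3.55 to 4.49) of the microneedle library and 0.0613% (0.0199 to 0.143) of the croton oil library. In the untreated library, 0 of 9827 cells allow a share of up to 0.0305% (3 counts of the total), and the exact binomial upper limit is 0.0375%. With the gate loosened to 5 UMIs and 500 CPM of the 6 genes, it held 3 cells (0.0305%), and the croton oil library 8 (0.0981%). Microneedle neutrophils, gated on S100a8 and S100a9, numbered 303 cells beside the 274 gated monocytes and macrophages, and croton oil neutrophils numbered 75 cells beside 5. Neutrophils had at least 1% of UMIs from S100a8 plus S100a9 and under 1000 CPM of the 6 genes. They also had under 300 CPM of Epcam plus Cd207 and under 0.5% from Krt14 plus Krt5. Keratinocytes were cells other than LCs with at least 0.5% from Krt14 plus Krt5 and under 1% from S100a8 plus S100a9. Removing the cells with the highest doublet scores took away 2 of the 274 cells. Few cell barcodes were shared between libraries (13 to 32 for each pair), and 1 gated microneedle cell had its barcode in the untreated library too.

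**Figure D1:**
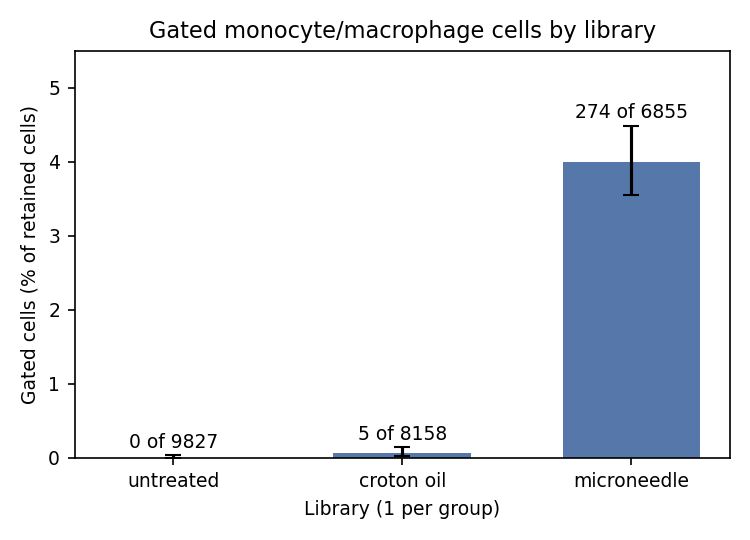
Share of retained cells that met the monocyte/macrophage gate in each library (percent), with exact binomial 95% intervals as error bars and the cell numbers above the bars. The microneedle bar stands at 3.997%, the croton oil bar at 0.0613% and the untreated library had 0 such cells.

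The 274 microneedle cells held 2266286 UMIs, with 1003 to 26166 UMIs in a cell and a median of 7714. Their median of 2698.5 genes and 0.464% mitochondrial UMIs stood beside medians of 17640 UMIs and 1.38% in the 5533 LCs of the same library and 3304 UMIs and 0.0699% in the neutrophils. LCs were cells with at least 0.8% of UMIs from Cd74 and at least 5 UMIs of Epcam. The values of the 6 gate genes chose the cells and are given as a description. Pf4, a heparin-binding chemokine, stood at 4048 CPM over the summed cells against 10.0 CPM in LCs. Ccl7 stood at 1665 CPM and Ccl2 at 1371 CPM, both ligands of the monocyte receptor Ccr2, and Ccl6 stood at 1265 CPM. Msr1, a scavenger receptor, reached 1003 CPM and Fcgr1, the high-affinity IgG receptor, 989 CPM. The cells did not use these genes alike: Pf4 ran from 0 to 37283 CPM with a median of 1265 CPM, and 211 of 274 cells (77.0%) had a UMI of it.

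The label was set beside markers, leaving the genes of the gates out of each list. For T cells, keratinocytes and neutrophils this is not an independent check. The gate itself kept out cells rich in their Cd3, keratin and S100 genes, so low sums of those lists partly follow from it. Lyz2, lysozyme of myeloid cells, had a UMI in 240 of 274 cells. Lgmn, a lysosomal protease, had one in 271, and Ctsb, cathepsin B, in all 274. After thinning every cell to 3000 UMIs, Lyz2 was seen in 79.6% of 245 gated cells, 23.4% of 197 neutrophils and 2.01% of LCs, whose median depths before thinning were 8332, 3955 and 17653.5 UMIs. Markers of several other cell types were low. Summed over each list, T cell markers gave 2.21 CPM (0 UMIs of Trac), mast cell and basophil markers 0.441 CPM, erythrocyte markers 0.441 CPM, B and plasma cell markers 5.74 CPM and fibroblast markers 12.4 CPM. Keratinocyte markers summed to 55.6 CPM, against 40.4 CPM in LCs and 238 CPM in neutrophils. The 10 neutrophil markers summed to 223 CPM, against 92.4 CPM in LCs and 7405 CPM in neutrophils, with 0 UMIs of Ly6g and Ngp. Of these, 5 were compared with LCs, and 4 were at least 2-fold higher and 1 lower. Of the platelet list, Ppbp was present while Gp1ba, Gp9 and Gp6 were at 0 UMIs and Itga2b was at 3.09 CPM. The 6 endothelial markers summed to 195 CPM, against 14.9 CPM in LCs and 97.4 CPM in neutrophils. Kdr stood at 137 CPM against 0.928 CPM in LCs, Pecam1 at 51.6 against 13.7 CPM and Cdh5 at 7.06 against 0.0766 CPM, while Cldn5, Emcn and Egfl7 were at 0 UMIs. Pecam1 stood at 95.9 CPM in neutrophils. The part of these other cell types in the values below was not tested.

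Against LCs of the same library, 7327 genes had at least 20 CPM in either class. Of these, 1340 (18.3%) were at least 2-fold higher in the gated cells and 1381 (18.8%) at least 2-fold lower, on the scale log2((CPM + 5)/(CPM + 5)), with a median over all genes of -0.12. This contrast belongs to the rule that defined the cells, so its values describe them and are not a test, and a listed gene that was compared only because it is high in the gated cells had to differ. Leaving out the genes of the gates, the 12 genes furthest above LCs were Ccl8, Gpnmb, Fabp5, Gm56663, Zeb2, Ccl9, Mrc1, Cd36, Arhgap10, Dab2, Ccl12 and Lyz2. Ccl8 (chr11:82006007-82007625 of GRCm39), a chemokine for monocytes, stood at 857 CPM (95% Poisson interval 820 to 896) against 0.498 CPM, a log2 difference of 7.29. Gpnmb, a lysosomal glycoprotein of lipid-laden macrophages, stood at 1476 CPM (1426 to 1526) against 5.14 CPM, a log2 difference of 7.19. Zeb2, a repressor that shapes mononuclear phagocyte identity, stood at 3001 CPM against 18.5 CPM (6.997). Mrc1, the mannose receptor CD206, stood at 881 CPM against 2.12 CPM (6.96). Cd36, a receptor for oxidized lipid, stood at 811 CPM against 1.78 CPM (6.91). Fabp5, a fatty acid binding protein, stood at 4365 CPM against 26.8 CPM in LCs, and keratinocytes, which also use it, had 2312 CPM. Fabp5 has near-identical pseudogene copies, so its counts are less certain. Dab2, an endocytic adaptor, was at 867 CPM and had a UMI in 262 of 274 cells. Gm56663, an uncharacterized long noncoding RNA of chromosome 19 (chr19:11370203-11370687), had a UMI in 246 of 274 cells.

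The 12 genes furthest below LCs were H2-M2, Tbc1d4, Sema6d, Il1r2, Ocln, Cacna1e, Cacnb2, Cldn1, Nbea, Mfge8, Aff3 and Plpp1. H2-M2, a nonclassical class I gene, stood at 4.85 CPM in the gated cells and 642 CPM in LCs (log2 difference -6.04). Il1r2, the decoy receptor for interleukin-1, stood at 63.1 CPM against 3952 CPM (-5.86), and neutrophils had 2165 CPM. Ocln and Cldn1, which build tight junctions, stood at 2.21 and 4.85 CPM against 389 and 483 CPM. Mfge8, which bridges dying cells to phagocytes, was at 19.4 CPM against 1195 CPM. Cacna1e and Cacnb2, subunits of voltage-gated calcium channels, were at 6.62 and 7.50 CPM against 597 and 638 CPM. Of the LC markers that no gate used, 8 of 9 compared genes were at least 2-fold lower and 0 higher, with a median of -5.12. Adgre1, which encodes F4/80 and is shared by LCs and macrophages, was the exception at 224 against 200 CPM.

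**Figure D2:**
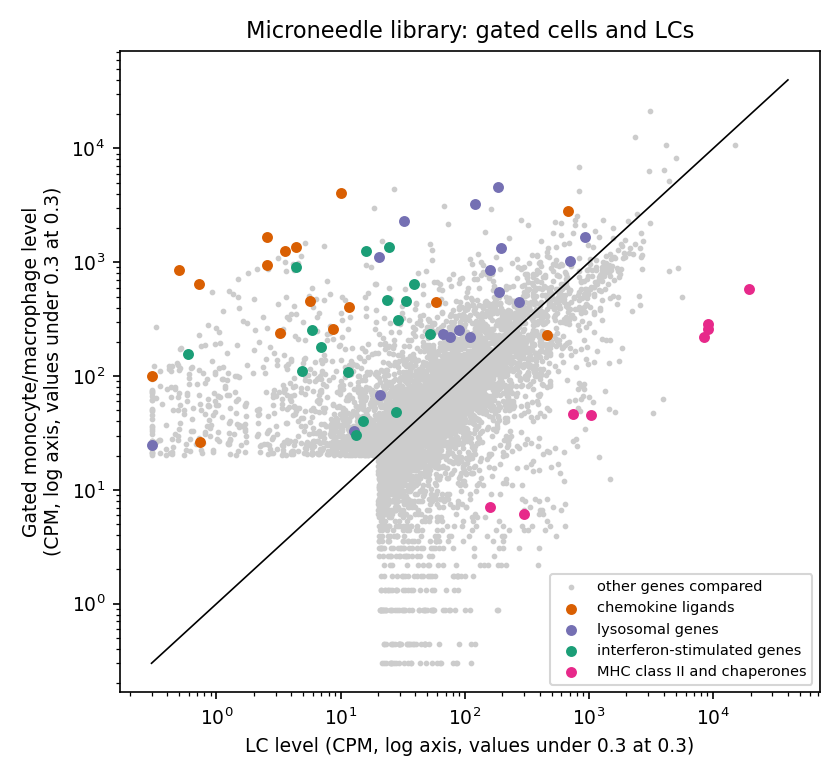
Level of each of 7327 genes in the 274 gated microneedle cells (vertical, CPM, log axis) against LCs of the same library (horizontal, CPM, log axis), 1 point per gene, with equal levels on the line. Chemokine ligands lie above the line apart from Cxcl16, the interferon-stimulated and lysosomal genes lie above it, and the class II genes lie below it.

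Monocyte and macrophage markers were present together. Of the 15 monocyte markers, 12 were compared with LCs, and 10 were at least 2-fold higher with a median of 4.88. Ly6c2, which marks classical monocytes, stood at 271 CPM against 0.325 CPM and had a UMI in 121 of 274 cells. At 3000 UMIs it was seen in 34.3% of gated cells and 16.8% of neutrophils. Ccr2 stood at 124 CPM in the gated cells, 0.488 CPM in LCs and 0.786 CPM in neutrophils. Chil3, a chitinase-like protein with close paralogs, stood at 559 CPM against 1.25 CPM. Hp, haptoglobin, stood at 14.6 CPM, below the 20 CPM floor, and at 915 CPM in neutrophils. Of the 18 macrophage markers, 13 were at least 2-fold higher and 2 lower, with a median of 2.44. Ms4a7 was at 499 CPM against 3.61 CPM, Mertk, a receptor for dying cells, at 116 against 0.412 CPM, and Trem2, a lipid-sensing receptor, at 61.3 against 0.182 CPM. Csf1r and C1qa were the 2 lower ones, at 180 against 622 CPM and 90.0 against 484 CPM.

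Resident dermal macrophage markers were uneven. Lyve1 and Cd209f had 0 UMIs in all 274 cells, and Timd4 stood at 0.441 CPM against 35.6 CPM in LCs. F13a1, a coagulation factor subunit, stood at 499 CPM and had a UMI in 149 cells. Folr2 stood at 75.01 CPM with a UMI in 86 cells. Cd163, the haemoglobin scavenger receptor, was at 45.9 CPM and rested on 15 cells (5.47%). Of the 12 listed genes 7 were compared with LCs, and 6 were at least 2-fold higher and 1 (Timd4) lower.

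Most chemokine ligands were above LCs. Of 21 ligands, 16 were compared, 15 were at least 2-fold higher and 1 (Cxcl16) lower, with a median of 5.17. Without the 4 ligands used by the gate, 11 of 12 were higher and the median was 4.47. Ccl2 (chr11:81926397-81928279), Ccl7 (chr11:81936532-81938351), Ccl12 (chr11:81992645-81994466) and Ccl8 lie close together on chromosome 11. Ccl12 stood at 646 CPM against 0.727 CPM in LCs and had a UMI in 120 of 274 cells, while Ccl8 had a UMI in 59. Ccl9 (chr11:83463745-83473161), which lies next to Ccl6, stood at 948 CPM against 2.56 CPM in LCs and 34.6 CPM in neutrophils. The neutrophil attractants Cxcl2 and Cxcl3 stood at 2801 and 461 CPM, against 683 and 5.64 CPM in LCs, and at 24491 and 1687 CPM in neutrophils. Ccl3 and Ccl4 were likewise highest in neutrophils, at 1726 and 1680 CPM against 258 and 406 CPM. Cxcl1 stood at 446 CPM in the gated cells and 350 CPM in neutrophils. Ccl17, Cxcl9 and Cxcl14 had 0 UMIs in the gated cells.

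**Figure D3:**
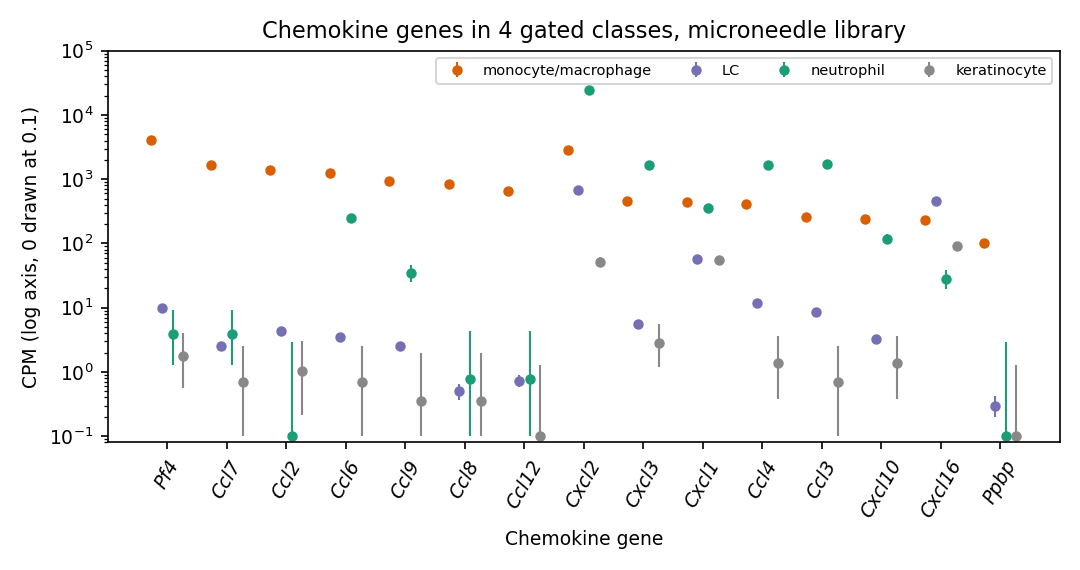
Levels of 15 chemokine genes (CPM, log axis, 0 drawn at 0.1) in the gated monocytes and macrophages, LCs, neutrophils and keratinocytes of the microneedle library, with Poisson 95% intervals as bars. Pf4, Ccl7, Ccl2, Ccl9, Ccl8 and Ccl12 are highest in the gated cells, while Cxcl2, Cxcl3, Ccl3 and Ccl4 are highest in neutrophils.

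The receptors by which such cells follow signals were also above LCs. All 7 compared chemoattractant receptors were at least 2-fold higher, with a median of 4.91. C3ar1 and C5ar1, receptors for complement fragments, stood at 509 and 348 CPM against 5.55 and 3.99 CPM in LCs. Ccr1 stood at 259 CPM, and neutrophils had 1026 CPM of Ccr1. Cx3cr1, a receptor of patrolling monocytes, stood at 2.65 CPM. Of the pattern recognition receptors, 11 of 13 compared were at least 2-fold higher and 1 (Nod2) lower, with a median of 2.48. The C-type lectins Clec4d and Clec4e stood at 940 and 528 CPM against 16.1 and 8.14 CPM, and Tlr7, a receptor for single-stranded RNA, at 94.9 against 0.249 CPM. Cd14, the endotoxin co-receptor, stood at 615 CPM against 78.0 CPM in LCs and 3787 CPM in neutrophils. Against neutrophils, 4 of 8 compared chemoattractant receptors were at least 2-fold higher and 3 lower, with a median of 0.08. Of 14 compared pattern recognition receptors 1 was higher than in neutrophils and 6 were lower, with a median of -0.61. Over all genes compared with neutrophils, 42.3% were higher and 18.7% lower, with a median of 0.69.

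Inflammatory cytokine genes lay mostly above LCs and below neutrophils. Against LCs, 7 of 12 compared were at least 2-fold higher and 2 lower, with a median of 1.37. Against neutrophils, where 2935 of 6945 genes (42.3%) were at least 2-fold higher in the gated cells and 1297 (18.7%) lower, with a median over all genes of 0.69, 0 of 13 cytokine genes were higher and 8 were lower. Il1b stood at 767 CPM in the gated cells, 356 CPM in LCs and 8731 CPM in neutrophils. At 3000 UMIs per cell it was seen in 46.1% (39.8 to 52.6) of gated cells, 29.6% of LCs and 99.5% of neutrophils. Il1rn, the natural antagonist of interleukin-1, stood at 835 CPM against 3.599 CPM in LCs and 591 CPM in neutrophils, and was seen in 66.9% (60.7 to 72.8) of gated cells, 0.742% of LCs and 60.9% (53.7 to 67.8) of neutrophils at that depth. Osm, a cytokine that acts on keratinocytes, stood at 170 CPM against 2.02 CPM in LCs. Tnf did not differ by 2-fold from LCs, at 244 against 261 CPM. Il6 stood at 1.76 CPM and Il12b at 0 UMIs.

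Genes used as marks of alternative activation were mostly above LCs. Of 7 compared alternative genes 6 were at least 2-fold higher, with a median of 6.11. Tgm2, a transglutaminase, stood at 190 CPM against 20.6 CPM in LCs and 159 CPM in neutrophils. Retnla had 0 UMIs. Of the classical genes, 3 of 5 compared were higher and 1 lower. Acod1 stood at 206 CPM, against 7.79 CPM in LCs and 2587 CPM in neutrophils, Nos2 stood at 11.03 CPM, and Cd86 at 496 against 5619 CPM in LCs.

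Uptake and digestion genes formed a broad block. Of 18 compared scavenger and lipid genes, leaving out Msr1 of the gate, 15 were at least 2-fold higher than in LCs and 1 lower, with a median of 3.42. Plin2, which coats lipid droplets, stood at 1274 CPM against 54.1 CPM, and Abca1, a cholesterol exporter, at 1039 against 54.6 CPM. Lgals3, galectin 3, was at 6894 against 826 CPM. Spp1, osteopontin, stood at 2170 CPM against 73.6 CPM in LCs, and at 2935 CPM in neutrophils. All 17 lysosomal genes were compared, and 13 were at least 2-fold higher and 0 lower, with a median of 1.51. Ctsb stood at 4559 CPM against 186 CPM, Ctsl at 2306 against 32.6 CPM, Ctsd at 1119 against 20.3 CPM and Psap, the saposin precursor, at 3229 against 122 CPM. Ctss, the protease that LCs use on the class II chaperone, was nearer, at 1673 against 930 CPM. Against neutrophils 14 of 17 lysosomal genes were higher and 2 (Gla and Lamp2) lower. Of 12 compared efferocytosis genes, 6 were higher than in LCs and 4 (Mfge8, Timd4, Havcr2 and Elmo1) lower.

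Iron and haem genes followed. Of 10 compared, 8 were at least 2-fold higher than in LCs and 0 lower, with a median of 2.03. Hmox1, which breaks down haem, stood at 685 CPM against 7.83 CPM in LCs and 254 CPM in neutrophils, and was seen in 70.2% of gated cells, 1.79% of LCs and 32.5% of neutrophils at 3000 UMIs. Ferritin transcripts were abundant in the gated cells: Fth1 stood at 21162 CPM and ranged from 405 to 94704 CPM between cells, and Ftl1 stood at 12564 CPM. The iron exporter Slc40a1 was at 1.32 CPM, against 102 CPM in neutrophils. Against neutrophils, 5 of 11 compared iron and haem genes were at least 2-fold higher and 4 lower, with a median of 0.46. Over all genes compared with neutrophils, 42.3% were higher and 18.7% lower, with a median of 0.69. The list, ferritin included, summed to 34838 CPM in the gated cells, 5719 CPM in LCs and 44311 CPM in neutrophils.

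Repair-linked secreted products were also above LCs. Of 9 compared growth and angiogenic genes, 7 were at least 2-fold higher and 0 lower, with a median of 3.19. Thbs1, thrombospondin 1, stood at 972 CPM against 4.14 CPM in LCs and 775 CPM in neutrophils. Fn1, fibronectin, stood at 398 CPM against 1.52 and 4.71 CPM. Vegfa did not differ by 2-fold from LCs, at 71.0 against 71.8 CPM. Of 13 compared proteases and inhibitors, 9 were at least 2-fold higher and 1 (Mmp9) lower, with a median of 3.90. Mmp12, macrophage elastase, stood at 139 against 7.54 CPM, Mmp13 at 119 against 2.38 CPM, and Timp2, a protease inhibitor, at 426 against 3.11 CPM. Of 15 compared glycolysis and hypoxia genes, 10 were at least 2-fold higher and 0 lower, with a median of 1.33. Pgam1 stood at 580 against 62.3 CPM and Hif1a, which is listed with the transcription factors, at 969 against 114 CPM.

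**Figure D4:**
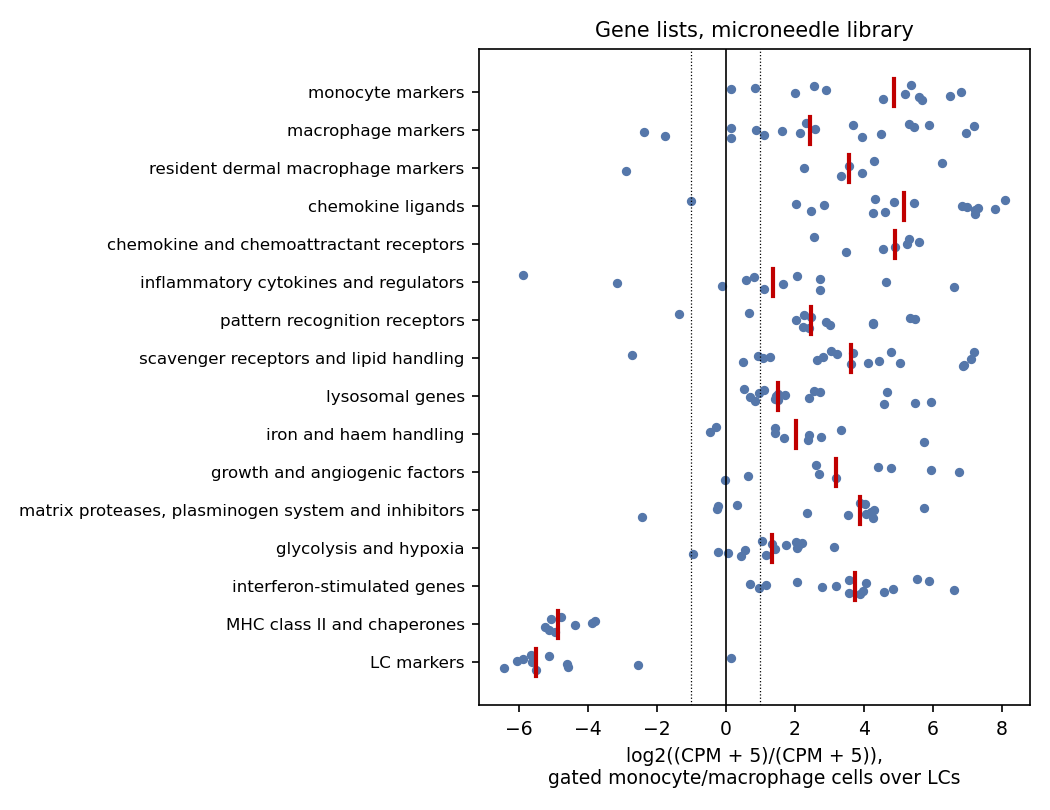
Log2 difference between gated microneedle cells and LCs for each compared gene (points) of 16 lists, with the list median as a red bar and 2-fold differences as dotted lines. Medians run from -5.50 for LC markers and -4.86 for class II genes to 5.17 for chemokine ligands, and the lists as drawn include genes of the gates. Without them these medians are -5.12, -4.77 and 4.47, and chemokine ligands then lie below chemoattractant receptors (4.91) and monocyte markers (4.88).

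Among transcription factors of monocytes and macrophages, 11 of 16 were at least 2-fold higher than in LCs and 2 (Cebpd and Nr4a1) lower, with a median of 1.80. Maf stood at 470 CPM against 5.64 CPM, Tfec, a relative of Mitf, at 122 against 0.316 CPM, Pparg, a lipid-sensing nuclear receptor, at 79.4 against 0.431 CPM and Cebpa at 137 against 8.48 CPM. Spi1, which encodes PU.1, was at 372 against 365 CPM. Of the 9 factors tied to LC identity, 4 were at least 2-fold higher than in LCs and 3 lower, with a median of 0.22. The higher ones were Zeb2 at 3001 against 18.5 CPM, Id2 at 1142 against 459 CPM, Klf4 at 302 against 70.3 CPM and Bhlhe41 at 21.2 against 0.249 CPM. The lower ones were Runx3 at 109 against 468 CPM, Ahr at 45.0 against 251 CPM and Irf4 at 5.74 against 113 CPM. Receptors for colony-stimulating factors were split, with Csf3r at 52.5 against 3.38 CPM and Csf2rb at 149 against 376 CPM.

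Class II genes were far below LCs and, apart from H2-DMb1 (46.8 against 19.6 CPM), within 2-fold of neutrophils among the 6 compared. All 8 compared class II genes were at least 2-fold lower than in LCs, with a median of -4.86. Without Cd74, which the LC gate used, the median was -4.77. H2-Ab1 stood at 259 CPM in the gated cells, 9107 CPM in LCs and 225 CPM in neutrophils. At 3000 UMIs it was seen in 45.3% (38.96 to 51.8) of gated cells and 49.2% (42.1 to 56.4) of neutrophils, a cell type that should lack it, so the gated share is not read as expression. Single gated cells ranged from 0 to 5289 CPM of H2-Ab1, and the source of these UMIs was not tested. Cd74 stood at 577 CPM in the gated cells and 389 CPM in neutrophils. Ciita, the activator of class II genes, stood at 6.18 CPM against 299 CPM in LCs and 8.64 CPM in neutrophils. Of the other complement genes, C3 stood at 101 CPM against 1.46 CPM in LCs, and C1qb at 35.7 against 8.31 CPM.

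Interferon-stimulated genes were above LCs, with 14 of 16 at least 2-fold higher, 0 lower and a median of 3.73. Rsad2, the antiviral protein viperin, stood at 909 CPM against 4.37 CPM in LCs and 339 CPM in neutrophils. Ifi27l2a stood at 1366 CPM against 24.6 CPM, Ifitm3 at 1257 against 16.1 CPM and Mx1 at 157 against 0.593 CPM. Isg15, a ubiquitin-like protein, stood at 641 CPM against 38.7 CPM in LCs and 1302 CPM in neutrophils. Type I interferon acts on such genes through a DNA element bound by a STAT and IRF9 complex, the interferon-stimulated response element. A 10-base core of that element, GAAA followed by any 2 bases and a second GAAA, was searched on both strands, overlaps allowed, in the 300 bases from 250 before to 50 after each start in RefSeq's promoter table (GRCm38.p6). It stood in 7 of the 11 listed genes with a promoter there (63.6%), against 3.99% of all 27025 genes with a promoter there. The stretches from 130 to 31 bases before the start of 3 of these genes are shown because they hold the matches, in capitals. A match written as TTTC, any 2 bases and TTTC is the same motif on the other strand.
Isg15, chr4:156200849-156200948, minus strand: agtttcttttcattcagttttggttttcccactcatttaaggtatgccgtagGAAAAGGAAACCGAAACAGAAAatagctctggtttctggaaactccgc
Rsad2, chr12:26456483-26456582, minus strand: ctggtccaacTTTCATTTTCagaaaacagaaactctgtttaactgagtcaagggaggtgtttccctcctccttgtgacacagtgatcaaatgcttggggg
Ifit1, chr19:34640759-34640858, plus strand: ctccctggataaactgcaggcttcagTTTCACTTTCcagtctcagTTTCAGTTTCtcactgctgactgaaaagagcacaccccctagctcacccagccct
Isg15 held 3 overlapping matches there, Ifit1 held 2 and Rsad2 held 1. A match describes the letters only.

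The gated cells varied widely among themselves. In 197 cells thinned to 5000 UMIs, with 77 shallower cells left out, the excess squared coefficient of variation (variance beyond counting, over the squared mean) had a median of 0.571 over 2019 genes. It was highest for Ppbp, a platelet-type chemokine, at 25.7, followed by S100a9 (19.1), Tmem267 (18.2), Cxcl10 (17.7), Slc7a2 (16.2) and Ccl8 (15.6). Ccl8 was found in 38 of the 197 cells, and the 10 cells richest in it held 81.1% of its UMIs. Ppbp was found in 17 cells, the richest with 30 UMIs. Across the same 197 cells, Ccl2 and Ccl7, both genes of the gate, had a Spearman correlation of 0.73, which describes values the rule used. Ccl8 and Ccl12 had a correlation of 0.54, and 33 of the 38 cells with Ccl8 also held Ccl12. Rsad2 and Fcgr1, the latter a gene of the gate, had a correlation of 0.60. These are descriptions across cells of 1 library, which share its free RNA and preparation.

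Clustering the 274 cells by themselves gave 3 sub-clusters, whose defining genes describe the split and are not tested. There were 2 at Leiden resolution 0.3 and 6 at 1.0, against 0.5 here. Their median UMIs were 7865, 7419.5 and 7727. Their median mitochondrial shares differed, at 0.506%, 0.269% and 0.832%, and the part of this in the levels below was not tested. Sub-cluster 1 held 114 cells (41.6%) and was led by C1qb, Tbc1d30, C1qa, Cavin1, C1qc, Itga9, Shtn1 and Lpl. C1qa stood at 174 CPM in it and 22.3 CPM in the other gated cells. It had a UMI in 30 of the 114 cells (26.3%) and in 10.6% of the others, and C1qb and C1qc had one in 17 and 32 of the 114. At resolution 1.0, 46 of the 114 cells stayed together, against 66 of 86 and 57 of 74 for sub-clusters 2 and 3. Lpl, lipoprotein lipase, stood at 303 CPM against 75.6 CPM, and Mrc1 at 1055 CPM. Against the other gated cells, 280 of 6598 genes (4.24%) were at least 2-fold higher in it and 277 (4.2%) lower.

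Sub-cluster 2 held 86 cells (31.4%) and was led by Ifit2, Ifit1bl1, Ly6a, Rsad2, Cmpk2, Ifi214, Ccl12 and Cxcl10. All 16 interferon-stimulated genes were at least 2-fold higher in it than in the other gated cells, with a median of 2.49, beside 5.17% of 6615 genes higher and 5.12% lower. Rsad2 stood at 2759 CPM against 176 CPM and had a UMI in 81 of 86 cells, and Ccl12 stood at 1844 against 171 CPM. Of 12 compared monocyte markers 2 were higher there and 1 lower, with a median of -0.23. Ly6c2 stood at 600 CPM against 160 in sub-cluster 1 and 108 in sub-cluster 3, and Plac8 at 729 against 91.1 and 119 CPM. In sub-cluster 3, 3 of the 12 were higher and 3 lower, with a median of 0.07. Cd14 stood at 1388 CPM in sub-cluster 3, against 341 and 309 CPM in sub-clusters 1 and 2. The monocyte list summed to 6116, 6136 and 7530 CPM in sub-clusters 1, 2 and 3. Kdr, listed with endothelial genes, stood at 339 CPM in sub-cluster 2 and at 59.4 and 52.3 CPM in the others. The same 10-base motif stood in 4 of the 7 leading genes of sub-cluster 2 that have a promoter in the table (57.1%), in 0 of 4 for sub-cluster 1 and in 0 of 5 for sub-cluster 3. Over all genes with a promoter there the share was 3.99%, so 0 of 4 and 0 of 5 show no contrast with it. Rsad2 and Ifit2 were also among the interferon-stimulated genes searched above.

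Sub-cluster 3 held 74 cells (27.0%) and had Ereg, B230303A05Rik, F3, Inhba, Slpi, Dach1 and Cxcl3 among its leading genes. Inhba, the activin A subunit, stood at 1001 CPM against 86.5 CPM in the other gated cells. Slpi, an inhibitor of neutrophil proteases, stood at 1772 CPM against 164 CPM. F3, tissue factor, and Ereg, an epidermal growth factor family ligand, had UMIs in this sub-cluster alone among the gated cells, in 7 and 6 cells. Spp1 stood at 5544 CPM, against 889 and 971 CPM in sub-clusters 1 and 2, and Thbs1 at 2378 CPM against 302 and 687 CPM. Cxcl2 stood at 5685 CPM against 1722 and 1749 CPM. The neutrophil marker list, S100a8 and S100a9 of the gate included, summed to 696 CPM in this sub-cluster, 513 CPM in sub-cluster 1 and 419 CPM in sub-cluster 2, and its part in these values was not tested. Pecam1, listed with endothelial genes, stood at 129 CPM against 19.8 and 28.0 CPM. Of the platelet list, Pf4 of the gate included, 1 of 2 compared genes was higher in sub-cluster 3 and 0 lower, with a median of 1.43. That list summed to 5260 CPM, against 4016 and 3323 CPM in sub-clusters 1 and 2, and its part in these values was not tested. Beside 5.2% of 6541 genes higher and 7.61% lower, 7 of 11 growth genes were higher (median 1.43), 9 of 17 glycolysis genes (1.02) and 7 of 12 inflammatory genes (1.13). Of 18 macrophage markers 1 was higher and 8 were lower, among them Mrc1 at 358 CPM. Ccl8 had 0 UMIs in its 74 cells, where 3 counts would be 4.90 CPM, against 631 CPM in sub-cluster 1 and 2029 CPM in sub-cluster 2.

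**Figure D5:**
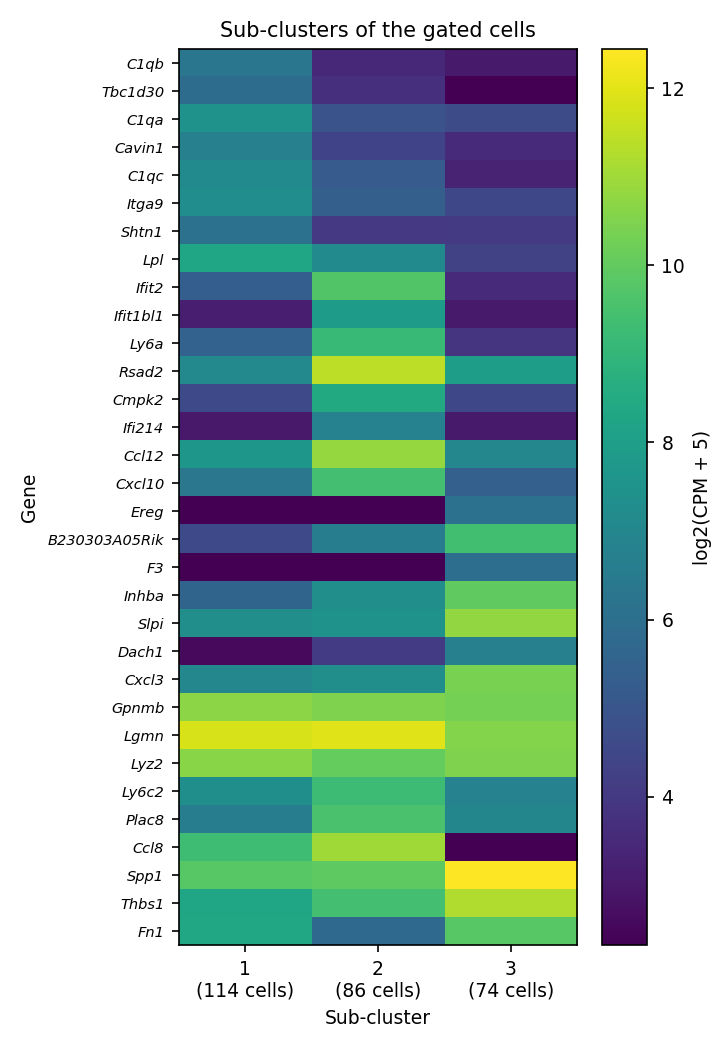
Levels of leading genes and further genes (rows) in the 3 sub-clusters of the 274 gated microneedle cells (columns, cell numbers below), as log2(CPM + 5). The C1q genes are highest in sub-cluster 1, Rsad2 and Ccl12 in sub-cluster 2, and Inhba and Spp1 in sub-cluster 3, while Gpnmb is close in all 3 at 1618, 1431 and 1287 CPM.

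The 5 gated croton oil cells held 35642 UMIs in all and are described cell by cell, with no comparison. Pf4 had 374, 5, 192, 150 and 88 UMIs in cells of 12278, 1931, 7368, 5801 and 8264 UMIs, and Mrc1 had 30, 1, 63, 24 and 11. Cd163 had 12, 0, 0, 18 and 3 UMIs. Ly6c2 and Rsad2 had 0 UMIs in all 5 cells, and Gpnmb had 3 UMIs in the first cell and 0 in the others. Ccl8 was held almost wholly by the first cell, at 85 UMIs. The second cell, the shallowest, had 18 UMIs of Cd74.

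The limit of 10 UMIs on the 6 genes fell within a filled range. Cells that met every other condition but missed the 10 UMIs of the 6 genes numbered 44 and had a median of 1848.5 UMIs. A sum of 5 to 9 UMIs that made up at least 500 CPM was held by 30 cells, with Lyz2 at 960 CPM and Gpnmb at 2334 CPM. A sum of 10 to 14 UMIs that made up at least 1000 CPM, the limit of the gate, was held by 23 gated cells, with Lyz2 at 1298 CPM and Gpnmb at 1828 CPM. The limit on Epcam and Cd207 alone kept out 34 cells, in which Cd74 stood at 10202 CPM, against 577 CPM in the gated cells. The limit on S100a8 and S100a9 alone kept out 31 cells, with Lyz2 at 664 CPM and Cd74 at 265 CPM.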

How the data were processed

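The authors deposited whole-number UMI counts per gene and cell, not normalized, named as Cell Ranger 8.0.0 output by the matrix headers, and as Cell Ranger 8.0 on GRCm39 per the submitters' processing notes. Libraries were Chromium 3' v3.1 per the labels, so counts reflect transcript ends, and free RNA enters every droplet. Cells with at least 500 genes and at most 10% mitochondrial UMIs were kept, and the gates were applied to them. Scrublet's automatic threshold marked 1, 0 and 0 cells and was taken not to have worked, so doublets stayed in, with removal at 0.8% per 1000 cells as an alternative. UMIs were summed over each class, turned into CPM with exact Poisson intervals, and compared as log2((CPM + 5)/(CPM + 5)) in genes with at least 20 CPM in either class. The depth was 2266286 UMIs for the gated cells. Genes were named as the 12 furthest each way without gate genes, and from 38 lists. The members and lists were chosen with earlier results of these data known. Sub-clusters used 1000 variable genes, 15 components, 15 neighbours and Leiden resolution 0.5 (scanpy 1.11.5, leidenalg 0.10.2, Python 3.11.15). Alternatives included TMM factors from edgeR 4.0.16. The comparison was tested on simulated data. Coordinates of genes are GENCODE M39 on GRCm39. Some genes are not reported here.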

Additional observations from a re-analysis of the deposited data

How the results depend on the processing

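No paired analysis was possible because each group had 1 library. The microneedle share of gated cells moved from 3.997% to 3.33% (228 cells) with the stricter 6-gene gate and to 4.43% (304 cells) with the looser one, under which the untreated library held 3 cells in place of 0 and the croton oil library 8 in place of 5. The count of genes lower than in LCs moved from 1381 to 910 when 50 CPM was required, which leaves 4597 genes to compare. The number of sub-clusters moved from 3 to 6 at Leiden resolution 1.0. At resolution 0.3 there were 2, where sub-clusters 1 and 2 largely joined. Without a filter on low values, 2 list medians changed sign: S phase from 1.06 (1 gene, Pcna) to -0.12, and melanocyte markers from 7.19 (1 gene, Gpnmb) to -0.061. The count of genes higher than in LCs stayed within 1.5 times its value in all 12 alternatives. Log2 differences moved beyond their counting intervals for all 24 named genes with a pseudocount of 20 CPM, 12 with 1 CPM, 9 without high doublet scores and 7 with the mean of per-cell CPM. Ccl8 stood at 7.29, and at 5.42 and 9.16 with pseudocounts of 20 and 1 CPM. Of 33 list medians, 16 moved by over 1.5 times with a pseudocount of 20 CPM, 12 with 1 CPM and 13 without the filter, besides those that changed sign. Of the 32 genes whose share of cells with a UMI was taken at 3000 UMIs, 28 moved outside its interval without thinning and 16 at 5000 UMIs. Of the 12 genes named above LCs, 8 were named again with a pseudocount of 1 CPM, and of the 12 below, 6. Restricting LCs to those with under 1% S100a8 and S100a9, and another random seed for the sub-clusters, were chosen after seeing the data. Depth limits genes near 1 UMI per cell, and 1 library per group leaves the spread between animals unmeasured.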

Other observations

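Most cell cycle genes were at low levels in the gated cells, with Pcna and Hmgb2 as exceptions. Of the 12 S phase genes, 1 reached 20 CPM in either class. It was Pcna, a clamp for DNA polymerase in replication and repair, at 195 CPM against 91.1 CPM in LCs and 119 CPM in neutrophils. The S phase list summed to 269 CPM against 190 CPM in LCs, and the G2/M list to 167 against 311 CPM. Hmgb2, a chromatin protein, made up 107 CPM of the G2/M sum, against 185 CPM in LCs and 318 CPM in neutrophils. Thinned to 3000 UMIs, Mki67, a proliferation marker, was seen in 5.71% (3.16 to 9.40) of gated cells, 13.5% of LCs and 4.57% of neutrophils. Of the 12 G2/M genes, 2 reached 20 CPM in either class, and 0 were at least 2-fold apart from LCs on either side. Ccnb1 and Ccnb2 had 0 UMIs. Immediate early genes, which dissociation of tissue can raise, were split, with 3 of 12 at least 2-fold higher than in LCs and 4 lower. Fosb stood at 178 CPM against 1829 CPM and Dusp1 at 1797 CPM against 517 CPM. Dendritic cell markers were mostly low in the gated cells, with Flt3 at 7.94 CPM and Zbtb46 at 1.32 CPM, while Sirpa, shared with macrophages, stood at 732 CPM against 158 CPM in LCs.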
